A study of Mus musculus with 6 samples.

Results

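Metallothioneins are small cytosolic proteins very rich in cysteine, and the thiols of these cysteines hold zinc, copper and cadmium in clusters. Here their 2 widely expressed genes, Mt1 and Mt2, were followed in osteal macrophages of ovariectomized (OVX) and sham-operated mice. They were chosen by their symbols, and because their levels in OVX and sham libraries had been seen to differ, so the OVX against sham values of Mt1 and Mt2 are given as a description with no test. They are 2 of 11815 genes, and 3 of 23115 transcripts, listed in the deposited table. Both passed the filter on low values that left 8184 genes for testing.

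The mice were female BALB/c, 10 weeks old at surgery. One group had both ovaries removed (OVX) and the other had a sham operation, and femurs and vertebrae were taken 4 weeks later. After marrow had been washed out, the bone was digested and cells were sorted with antibodies against CD11b, F4/80 and CD68 as osteal macrophages (Omacs). RNA-Seq gave 3 libraries per group, with numbers 1 to 3 from the sample titles. Bones of many mice were collected per condition, and which mice went into which library was not given, so the spread between libraries may be technical.

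Metallothionein transcription is driven by metals: free zinc binds the transcription factor MTF1, which then binds metal response elements in the promoters of Mt1 and Mt2. Glucocorticoids, inflammatory cytokines acting through STAT3, and oxidants raise the same genes. Metallothionein releases its zinc when its thiols are oxidized, and in macrophages it takes part in withholding zinc from engulfed microbes. The family in mice also holds Mt3, known mainly from brain, and Mt4, known from stratified epithelium. Neither was listed in the table, and neither was analysed here.

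Both genes lie on the plus strand of chromosome 8 in GRCm38 (mm10). Mt2 (ENSMUSG00000031762) runs from 94172664 to 94173568, and Mt1 (ENSMUSG00000031765) from 94179082 to 94180327, with 5513 bases between them. The main transcripts, Mt1-201 of 549 bases and Mt2-201 of 511 bases, have 3 exons each in GENCODE M21. Each carries a coding sequence of 186 bases, stop codon included. The coding sequences are shown to let the cysteine codons, which carry the metal binding, be seen in place. They were joined from the exons between 94179311 and 94180193 for Mt1 and between 94172848 and 94173427 for Mt2, and cysteine codons (TGC or TGT) are in capitals.
Mt1 coding sequence: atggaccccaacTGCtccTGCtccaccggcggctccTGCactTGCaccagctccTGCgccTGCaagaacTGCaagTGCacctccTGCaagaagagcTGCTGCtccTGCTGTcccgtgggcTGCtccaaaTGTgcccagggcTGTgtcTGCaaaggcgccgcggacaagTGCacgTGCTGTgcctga
Mt2 coding sequence: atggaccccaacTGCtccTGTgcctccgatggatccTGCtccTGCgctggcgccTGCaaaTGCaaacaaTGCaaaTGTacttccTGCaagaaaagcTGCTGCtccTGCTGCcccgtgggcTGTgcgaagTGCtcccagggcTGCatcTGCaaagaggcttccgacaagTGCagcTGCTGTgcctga

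Of 61 codons before the stop, 20 (32.8%) encoded cysteine in each gene, 16 as TGC and 4 as TGT. All 20 stood at the same positions in both. The coding sequences were identical at 148 of 186 bases (79.6%), and 46 of 61 codons (75.4%) encoded the same amino acid. Despite this likeness, the longest exact stretch that Mt1-201 and Mt2-201 shared was 20 bases, and no stretch of 50 bases of either was found in another annotated gene on the same strand. The antisense gene Gm45774, from 94170748 to 94173412 on the minus strand, covers part of Mt2. It shared 210 of the 462 stretches of 50 bases (45.5%) of Mt2-201 on the opposite strand. The library kit keeps strand, but whether counting used it was not given, and Gm45774 was not listed, so reads of it in the Mt2 value cannot be told apart. Mt1 has no such partner.

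The sequences before the annotated starts are shown to let matches to the metal response element core be seen in place. Further matches lay after these starts, in bases not printed. Sequences are RefSeq promoters on GRCm38.p6, cut at the first annotated start of RefSeq or GENCODE, from chr8:94178839-94179081 for Mt1 and chr8:94172368-94172617 for Mt2, both on the plus strand. The metal response element core was searched on both strands as TGCACNC or TGCGCNC, and matches are in capitals (on the minus strand, as their reverse complement).
Mt1 promoter: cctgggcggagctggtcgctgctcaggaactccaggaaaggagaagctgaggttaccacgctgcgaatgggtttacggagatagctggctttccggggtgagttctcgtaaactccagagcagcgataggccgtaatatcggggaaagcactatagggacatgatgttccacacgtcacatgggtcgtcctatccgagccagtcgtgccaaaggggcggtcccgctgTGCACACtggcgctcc
Mt2 promoter: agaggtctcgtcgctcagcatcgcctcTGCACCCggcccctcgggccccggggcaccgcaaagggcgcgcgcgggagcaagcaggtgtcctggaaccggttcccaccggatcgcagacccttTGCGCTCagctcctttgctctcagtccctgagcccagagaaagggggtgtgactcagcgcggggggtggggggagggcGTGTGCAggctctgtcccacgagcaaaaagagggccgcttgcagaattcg

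In the full window, from 250 bases before to 50 bases after the RefSeq start, Mt1 held 3 matches and Mt2 held 4. The match before the first start of Mt1 was TGCACAC, and further Mt1 matches, TGCACTC and then TGCGCTC, began 9 and 27 bases after its GENCODE start. Before its RefSeq start Mt2 had TGCACCC on the plus strand, then TGCGCTC on the same strand, and TGCACAC on the minus strand. A last match, TGCGCAC on the minus strand, began shortly after that start. Mt3 and Mt4 had 1 match each. Among 32851 promoters of the same length, 25.7% held at least 1 match and 1.97% held 3 or more. The antioxidant response element core TGACNNNGC occurred 1 time in the Mt2 window, as TGACTCAGC, and not in that of Mt1. It occurred in 12.4% of all promoters. An E-box (CACGTG, in 7.15% of promoters) had no match in either window. The other listed Mt1 transcript starts at 94179211, beyond the end of the Mt1 window, and the bases between were not searched. The counts for Mt1 and Mt2 hold for these windows only, and do not show that either gene lacks an element elsewhere. A match is a string of letters and not a measured site.

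The samples were first checked against their label. Csf1r, the macrophage growth factor receptor, was listed at 0 in all 6 libraries, for the 1 of its 6 annotated transcripts in the table. Adgre1, which encodes the F4/80 antigen of the sort and had 1 of 5 transcripts listed, was at 0.878 ± 0.262 TPM in sham and 0.675 ± 0.322 in OVX (mean ± SD, n = 3). Itgam, which encodes the CD11b antigen of the sort, was at 11.9 ± 1.52 in sham and 21.9 ± 5.52 in OVX. Its OVX libraries lay wholly above sham (7.42% of all genes), with an adjusted p of 0.527 (limma). Other myeloid genes were present, such as Cd68 at 34.6 ± 2.93 and 40.2 ± 3.47. RNA of other cells was abundant: decorin (Dcn), a fibroblast proteoglycan, reached 14261 ± 418 TPM in sham. Osteopontin (Spp1), which macrophages can make as well as bone cells, was at 6437 ± 5.28. The libraries are therefore called by their sort, and their purity cannot be read from these few transcripts. OVX 3 stood apart: its listed transcripts summed to 66.3% of the library total against 80.5% to 83.0% in the other libraries. Its correlation with the others over genes was 0.936 to 0.951, against 0.977 to 0.982 among the rest. Values here are TPM (a level corrected for transcript length and for the library total) summed per gene and divided by a scaling factor for each library (trimmed mean of M values), with factors from 0.841 (OVX 3) to 1.14 (sham 3).

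Mt1 was lower in OVX than in sham. Its scaled TPM were 1577, 1723 and 1410 in sham 1 to 3 and 922, 856 and 795 in OVX 1 to 3, so the means were 1570 ± 156 and 858 ± 63.5. Every OVX library lay below every sham library, with sham 1.83 times OVX and a difference of -0.87 on the log2(scaled TPM + 1) scale. Mt2, the more abundant of the pair in each library, was at 1767, 1975 and 1539 in sham and at 1033, 1215 and 1003 in OVX. The means were 1760 ± 218 and 1084 ± 115, sham was 1.63 times OVX, and the log2 difference was -0.70. Again the groups did not overlap. Bulk RNA cannot tell less metallothionein RNA per cell from fewer cells that make it.

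How common such a separation was is seen from all genes: 638 of the 8184 tested (7.8%) had all OVX libraries below all sham libraries, and 607 (7.42%) had them all above. At an adjusted p under 0.05 (limma, Benjamini-Hochberg over all tested genes) 1 gene (0.0122%) was called, and at an unadjusted p under 0.05 there were 283 higher and 280 lower. Both members belong to the 638, which is the contrast that chose them.

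**Figure D1:**
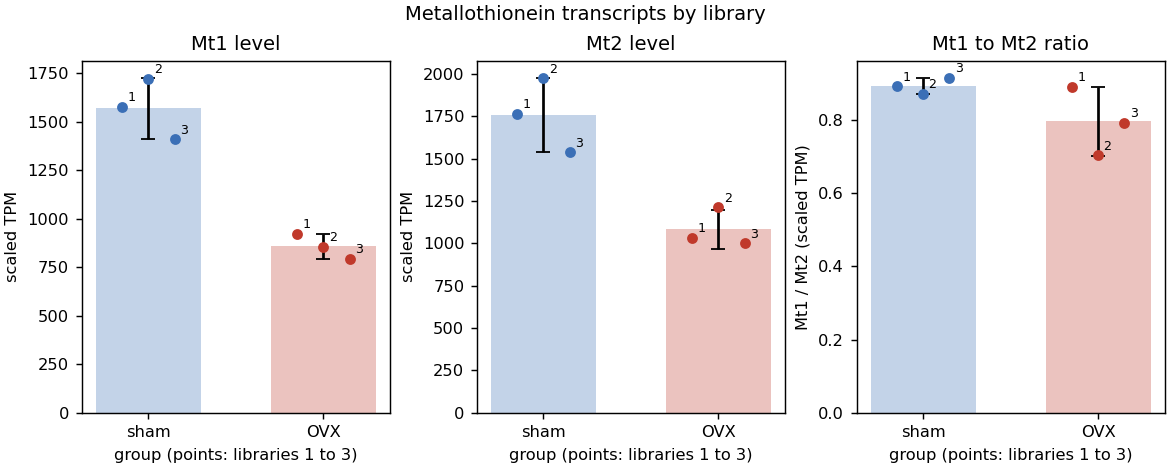
Scaled TPM of Mt1 (left) and Mt2 (middle) and the ratio of Mt1 to Mt2 (right) in sham (blue) and OVX (red) libraries. Bars are means, error bars SD (n = 3), and points are libraries with their number. Mt1 lies between 795 and 922 in OVX and between 1410 and 1723 in sham.

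**Figure D2:**
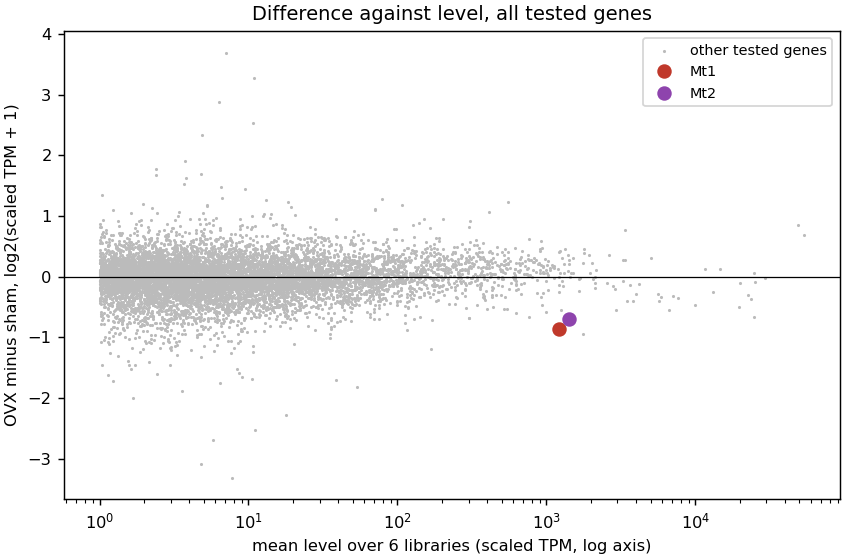
Log2 difference (OVX minus sham, vertical axis) against the mean scaled TPM over 6 libraries (horizontal, log axis) for 8184 tested genes, grey points, with Mt1 and Mt2 as large points. Mt1 lies at -0.87 and Mt2 at -0.70.

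The place of the pair in the ranking of all listed genes by level moved with these values. Mt1 ranked 48, 49 and 54 from the top in sham and 92, 100 and 138 in OVX. For Mt2 the ranks were 44, 43 and 46 in sham and 80, 64 and 108 in OVX. As a share of all listed TPM, Mt1 went from 0.203% ± 0.00913 to 0.106% ± 0.00502 and Mt2 from 0.228% ± 0.0158 to 0.134% ± 0.0143. Such a share is itself a scaling to equal totals, and the total holds S100a8 and S100a9, which were higher in OVX. With equal totals the median log2 difference of all tested genes was -0.0727. The TPM as deposited for Mt1 in sham were 1647, 1712 and 1608. Those in OVX were 920, 861 and 669, and sham was 2.03 times OVX. For Mt2 the deposited TPM in sham were 1845, 1963 and 1756. Those in OVX were 1031, 1222 and 844, and sham was 1.80 times OVX. Scaling matters for these sizes: the median log2 difference of all tested genes was -0.0132 after scaling and -0.147 in TPM as deposited. Without scaling 1071 of 8198 genes (13.1%) had all OVX libraries below sham and 293 (3.57%) had them above.

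Within the pair, the balance was close to even. Mt1 was at 0.893, 0.872 and 0.916 of Mt2 in sham and at 0.892, 0.705 and 0.793 in OVX. The OVX values reach into the sham range through OVX 1, and OVX 2, the library with the highest Mt2 of its group, has the lowest ratio. Of the 3 annotated transcripts of Mt1, Mt1-201 and Mt1-203 were listed, and of the 2 of Mt2, Mt2-201. Nearly all Mt1 came from Mt1-201, with Mt1-203 at 0.928%, 0.984% and 1.01% of the gene in sham and 1.31%, 1.88% and 0.215% in OVX. Alone, Mt1-203 gave 14.6, 17.0 and 14.2 scaled TPM in the sham libraries and 12.1, 16.1 and 1.71 in the OVX libraries, where the groups overlap and OVX 3 is the lowest. The other annotated transcripts of both genes were not analysed here.

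Transcripts this short can follow RNA size and fragment length, which were not given for these libraries, so this was not tested. OVX 3 did differ from OVX 1 and 2 in the level of short genes. For 279 tested genes whose listed transcripts were all at most 700 bases, OVX 3 exceeded the mean of OVX 1 and 2 by a median of 0.644 on the log2 scale, against -0.0413 for 7894 longer genes. Mt1 and Mt2 did not share this rise, both at -0.16. From sham to OVX the short genes had a median log2 difference of 0.133 and the longer ones of -0.0171, and 12 of the 279 (4.3%) had all OVX libraries below sham. Set against the short-gene median, the log2 difference was -1.002 for Mt1 and -0.83 for Mt2. Without OVX 3 the sham mean was 1.77 times OVX for Mt1 and 1.57 times for Mt2.

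The levels of Mt1 and Mt2 were then set against markers of the cell types that the sort could hold. Of 9 tested macrophage markers of 12 listed, 8 were above 0 and 5 had all OVX libraries above sham (7.42% of all genes). Ctss, a lysosomal protease, had OVX wholly below sham, at 27.7 ± 2.48 and 23.2 ± 1.64. Among the 5 were the signalling adaptors Tyrobp, at 104 ± 22.0 and 200 ± 27.5, and Fcer1g, at 208 ± 16.9 and 406 ± 129. The sum of the macrophage list ran from 1890 to 1921 TPM in sham and from 2323 to 2633 in OVX. Cd14 and Lgals3 made up 50.4% to 64.8% of it, and Csf1r and Adgre1 nearly nothing, so it is no count of macrophages. Per 100 TPM of this sum, Mt1 and Mt2 together stood at 177, 195 and 154 in sham and at 74.2, 83.0 and 77.4 in OVX, which is further apart than their own levels (2.24 times). The neutrophil list, 9 tested of 10 listed, had 8 genes above 0 and 1 below, with 4 wholly above sham (7.42% of all genes) and 5 overlapping. It summed to between 69691 and 89322 in sham and between 132001 and 141610 in OVX, of which S100a8 and S100a9 made up 94.7% to 97.4%. Against this sum, the pair was at 4.15, 4.14 and 4.23 in sham and at 1.38, 1.55 and 1.36 in OVX.

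The stromal list had more genes below than above 0. Of 13 tested stromal and fibroblast genes, 9 were below 0 and 5 had all OVX libraries below sham (7.8% of all genes), among them the fibrillar collagen gene Col3a1 at 18.5 ± 1.23 and 12.9 ± 3.27. The summed list was at 14802 to 15617 in sham, at 14509 and 13932 in OVX 1 and 2 and at 10331 in OVX 3. Dcn made up 92% to 94.2% of this sum, so the ratio to it is close to a ratio to Dcn. Per 100 TPM of the sum the pair was at 22.6, 23.7 and 19.5 in sham and at 13.5, 14.9 and 17.4 in OVX, so the groups stayed apart but by less (1.44 times). Against 9 listed osteoblast and osteocyte genes (7 tested, sum 9987 to 10213 in sham, 10478, 9760 and 6042 in OVX, with Phex at 0 throughout, and Spp1 and Sparc together 97.2% to 99.1% of the sum) the values were 32.9, 37.0 and 28.9 in sham and 18.7, 21.2 and 29.7 in OVX. Here OVX 3, with the lowest marker sum, reached the sham range. Spp1 alone made up 50.9% to 72.9% of that sum, and osteoblasts are not its only source. The part of a change in cell makeup in the metallothionein difference was not tested.

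In the smaller marker lists, all 8 tested muscle genes were below 0 and 4 had OVX wholly below sham, against 7.8% of all genes (sum 221 to 238 in sham, 141 to 174 in OVX). Plvap, the listed endothelial gene, was at 26.1 ± 6.25 and 15.5 ± 3.96. Of 12 tested chondrocyte genes 10 were above 0 and 8 had OVX wholly above sham (7.42% of all genes), with Col2a1, the main cartilage collagen, at 69.4 ± 1.41 and 120 ± 2.46 (limma, adjusted p = 0.246). The 2 below 0, the more abundant matrix genes Comp (513 ± 33.1 and 367 ± 74.5) and Chad (628 ± 64.3 and 454 ± 159), had OVX wholly below sham, and the list summed to 1346 to 1504 in sham and 946 to 1368 in OVX. Of 4 tested osteoclast genes 1 was above 0 and 3 below (2 and 2 without OVX 3), with Acp5 at 23.4 ± 1.71 and 14.8 ± 5.81 and Ctsk at 65.4 ± 5.85 and 63.3 ± 26.6. Of the 13 genes of the mitochondrial genome, 12 were below 0 and 8 had OVX wholly below sham (7.8% of all genes), with a median log2 difference of -0.303. Genes of red cells and lymphocytes were not listed and were not analysed here. Over all lists together, 145 genes other than the pair were tested and limma called 0, with 16 higher and 15 lower at an unadjusted p under 0.05. Over all 8184 tested genes limma called 1, with 283 higher and 280 lower at that unadjusted p. The lists thus held a larger share of such genes than the whole. Without OVX 3 limma called Col2a1 and the neutrophil granule gene Ngp, and with library weights also Col10a1, a collagen of hypertrophic cartilage.

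**Figure D3:**
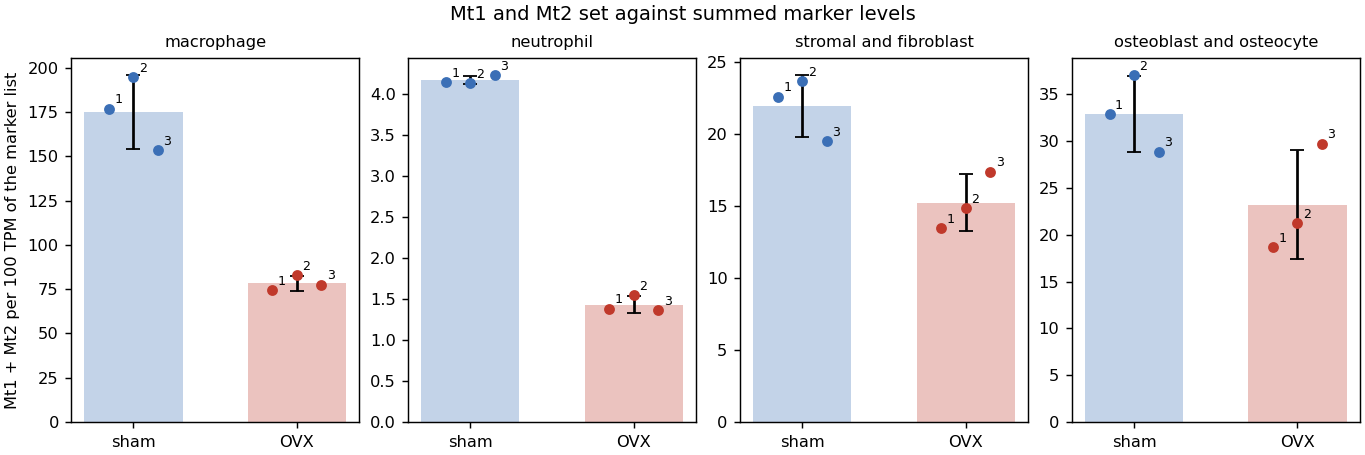
Summed scaled TPM of Mt1 and Mt2 per 100 TPM of each marker list (macrophage, neutrophil, stromal and fibroblast, osteoblast and osteocyte) in sham (blue) and OVX (red). Bars are means, error bars SD (n = 3), points libraries 1 to 3. The groups overlap for the osteoblast and osteocyte list, where OVX 3 is at 29.7 and sham 3 at 28.9.

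The wider zinc, copper and stress pathways around the pair were read from 8 gene lists. Of their 93 genes, 80 were listed and 73 tested, and limma called 0 of them. Over all tested genes limma called 0.0122%, so 0 calls in lists of this size say little about them. At an unadjusted p under 0.05, 3 were higher and 2 lower (283 and 280 of all 8184 genes). The smallest adjusted p was 0.466, and limma with library weights also called 0. OVX 3 and the scaling bear on several of these lists, so each count of genes above and below 0 is followed by the count without OVX 3 or in TPM as deposited where the list changed sides.

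MTF1, the zinc sensor itself, was close to the filter. In sham Mtf1 gave 0.958, 1.03 and 0.886 scaled TPM and in OVX 1.07, 0.984 and 1.28, overlapping, with a log2 difference of 0.11 ± 0.17 (SE) and an adjusted p of 0.862 (limma). Among 7 tested genes of MTF1 and its targets, 2 were above 0 and 5 below, with a median log2 difference of -0.123 against -0.0132 over all genes (1 above and 6 below without OVX 3, median -0.0635). Pgf, placental growth factor, was the tested one with OVX wholly below sham (7.8% of all genes). It was at 44.5, 44.5 and 47.6 in sham and at 34.0, 32.2 and 13.4 in OVX, a log2 difference of -0.86 ± 0.33 with an adjusted p of 0.693 in limma. The value of OVX 3 was the lowest by far. Slc30a1, the zinc exporter of the plasma membrane and a classic MTF1 target, was at 1.24, 1.64 and 1.09 in sham and at 1.37, 1.16 and 1.64 in OVX. Its log2 difference was 0.05 ± 0.18 (adjusted p = 0.945, limma), within the spread of the libraries.

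The remaining targets overlapped between the groups where tested. Slc39a10, a zinc importer that MTF1 represses, was at 3.84 ± 0.756 in sham and 3.08 ± 0.926 in OVX. Ndrg1, a stress-response gene, was at 141 ± 5.45 and 130 ± 9.54, and Selenow, encoding selenoprotein W, at 43.7 ± 6.93 and 38.7 ± 14.8. Gclc, the catalytic subunit of glutathione synthesis, stood at 5.59 ± 1.55 and 4.96 ± 0.528. Their adjusted p-values (limma) ran from 0.792 to 0.873. Csrp1, a LIM-domain protein of muscle and fibroblasts, fell under the filter, with 1.82, 0.744 and 1.45 in sham and 0.571, 0.686 and 0 in OVX. It was not tested.

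SLC30 proteins move zinc out of the cytosol into vesicles or out of the cell, and SLC39 proteins move it into the cytosol. Among 6 tested exporters and vesicle loaders, 5 were above 0 and 1 below, with a median log2 difference of 0.0382 and 0 with separate groups. Without OVX 3 these became 2 above and 4 below (median -0.0529), and in TPM as deposited 1 above and 5 below (-0.0738). Slc30a7, which loads zinc into the Golgi, stood at 2.63 ± 1.36 and 3.91 ± 0.664 in sham and OVX, and Slc30a6 at 7.28 ± 1.63 and 5.66 ± 1.80. Of 9 tested importers, 3 were above 0 and 6 below, with a median of -0.0566. Slc39a3 and Slc39a6 had OVX wholly above sham (7.42% of all genes). This depended on the scaling: 1 importer was wholly above with equal totals and 0 in TPM as deposited. Slc39a3 was at 0.670, 0.785 and 1.01 in sham and at 1.51, 1.29 and 1.34 in OVX, with a log2 difference of 0.39 ± 0.17 and an adjusted p of 0.706 (limma). Slc39a11 was at 2.34 ± 0.964 and 1.35 ± 0.620, and Slc39a7, which releases zinc from the endoplasmic reticulum, at 35.8 ± 3.29 and 30.4 ± 5.95. Slc39a14, the transporter with the highest level, was outside the naming rule and is named for that level, at 46.4 ± 1.26 and 46.6 ± 8.56.

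Copper handling genes split evenly, with 6 of 12 tested above 0 and 6 below, and a median of 0.0108. Without OVX 3 the split was 9 above and 3 below (median 0.195), and in TPM as deposited 5 above and 7 below (-0.142). Commd1, a regulator of copper export, had OVX wholly above sham, with 61.9, 69.5 and 49.99 in sham and 69.9, 75.3 and 107 in OVX (log2 difference 0.46 ± 0.21, adjusted p = 0.709, limma). Slc31a2 was at 9.13 ± 1.09 and 13.1 ± 4.18. Cox17, a copper chaperone for cytochrome oxidase, was at 600, 643 and 470 in sham and at 699, 583 and 1621 in OVX. The high OVX mean of Cox17 rests on OVX 3. Ccs, the copper chaperone of superoxide dismutase, was at 14.4 ± 2.57 and 10.6 ± 4.76. Atp7b, a copper pump, was listed at 0 in all libraries for the 1 of its 2 annotated transcripts in the table.

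**Figure D4:**
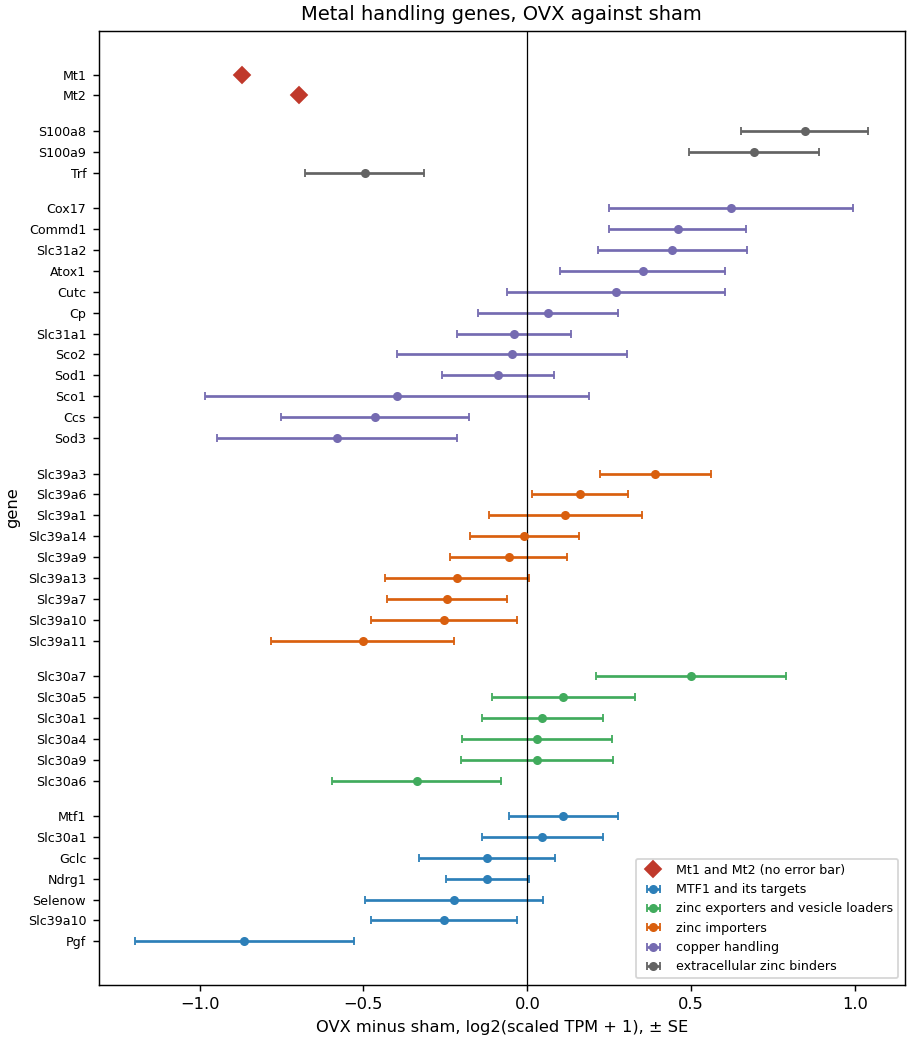
Log2 difference, OVX minus sham on log2(scaled TPM + 1), of the tested genes in 5 metal handling lists, with bars of 1 SE from limma. Slc30a1 and Slc39a10 stand in 2 lists each. Mt1 and Mt2 are diamonds with no error bar, since this difference chose them. Pgf at -0.86 is the target nearest to Mt1 at -0.87.

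S100a8 and S100a9 form calprotectin, which binds zinc and manganese outside the cell, and they also lead the neutrophil list. S100a8 was at 35989, 39297 and 29896 in sham and at 58702, 56355 and 74242 in OVX. All OVX libraries lay above sham, with a log2 difference of 0.85 ± 0.19 and an adjusted p of 0.466 (limma), which misses the threshold. S100a9 was at 41095 ± 5094 and 66715 ± 11090 (0.69 ± 0.20, adjusted p = 0.572, limma), also without overlap. Trf, transferrin, which carries iron and some zinc, was at 14.99 ± 2.30 and 10.3 ± 1.61, with OVX wholly below sham.

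The lists for other known inputs to Mt1 and Mt2 were read next, and limma called no gene in them (0.0122% of all genes). The inputs themselves were not measured. In the glucocorticoid list 2 of 9 tested genes were above 0 and 7 below, with a median of -0.105. Nr3c1, the glucocorticoid receptor, had OVX wholly above sham at 7.24 ± 0.722 and 8.57 ± 0.390. In TPM as deposited 0 tested genes of this list were wholly above. Tsc22d3, a glucocorticoid-induced leucine zipper gene, was at 24.96 ± 1.73 and 20.1 ± 6.73, Sgk1 at 43.5 ± 3.10 and 35.3 ± 4.86 and Errfi1 at 405 ± 10.99 and 343 ± 103, all overlapping. The STAT3 acute phase list had 8 of 14 tested above 0 and a median of 0.0535, which became 11 of 14 and 0.12 without OVX 3 and 4 of 14 and -0.0993 in TPM as deposited. Steap4, a metalloreductase, was wholly higher in OVX at 1.2002 ± 0.281 and 2.05 ± 0.311 (adjusted p = 0.693, limma), while Il6st, the shared receptor subunit gp130, was wholly lower at 8.19 ± 0.436 and 6.71 ± 0.421. Saa3, an acute phase gene, overlapped at 128 ± 20.3 and 161 ± 30.2, as did Cebpb at 199 ± 44.3 and 239 ± 35.6.

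In the oxidant response governed by NRF2, 13 of 17 tested genes were below 0 and 4 above, with a median of -0.123. This direction rested on OVX 3: without it 10 were above and 7 below, with a median of 0.0654. Nqo1, a quinone reductase, was at 33.5, 32.7 and 31.9 in sham and at 28.1, 29.1 and 14.3 in OVX, with OVX wholly below sham (log2 difference -0.50 ± 0.27, adjusted p = 0.726, limma). Hmox1, heme oxygenase, was at 1154, 952 and 1367 in sham and at 1143, 997 and 391 in OVX. OVX 1 and 2 lay within the sham range of Hmox1, and the low OVX mean rests on OVX 3. Prdx1, a peroxidase, overlapped at 676 ± 71.0 and 580 ± 36.6. Slc7a11, the cystine importer that feeds cysteine to glutathione, was wholly higher in OVX, at 11.7 ± 0.414 and 14.2 ± 0.413 (adjusted p = 0.722, limma). In TPM as deposited 0 tested genes of the NRF2 list were wholly higher.

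Genes next to the pair on chromosome 8 were read for any shared shift. Within 200 kb on either side GENCODE M21 has 17 other genes, of which few were listed. Nudt21, a cleavage factor in mRNA 3' end processing, was at 30.3 ± 2.04 in sham and at 29.2 ± 2.83 in OVX (log2 difference -0.05 ± 0.14, adjusted p = 0.919, limma). Ogfod1, a hydroxylase of a ribosomal protein, was at 0.661 ± 0.574 and 1.37 ± 0.500 (0.56 ± 0.32, adjusted p = 0.734, limma). Both overlapped between the groups.

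The genes whose pattern over the 6 libraries was most like that of the pair were found by the root mean square difference of log2(scaled TPM + 1), each gene centred on its own mean, from the mean profile of Mt1 and Mt2. Mt1 and Mt2 each lay 0.066 from that mean profile, which they define. Among 3210 other genes whose mean reached 10 scaled TPM, the nearest was Rpl15-ps3 at 0.113, a ribosomal protein pseudogene whose reads can be split with its parent gene. Cxcl5, a chemokine that draws neutrophils, followed at 0.118. It was at 171, 158 and 152 in sham and at 109, 96.4 and 90.3 in OVX. Within sham it was highest in sham 1, where Mt1 was highest in sham 2. Snhg17, a small nucleolar RNA host gene (0.154), Mtx2, a mitochondrial import protein (0.166), Tspan7, a tetraspanin (0.166), and mt-Co3, a subunit of cytochrome oxidase (0.174), came next. These 6 were picked for likeness over the same libraries, so their difference between groups is no separate result.

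**Figure D5:**
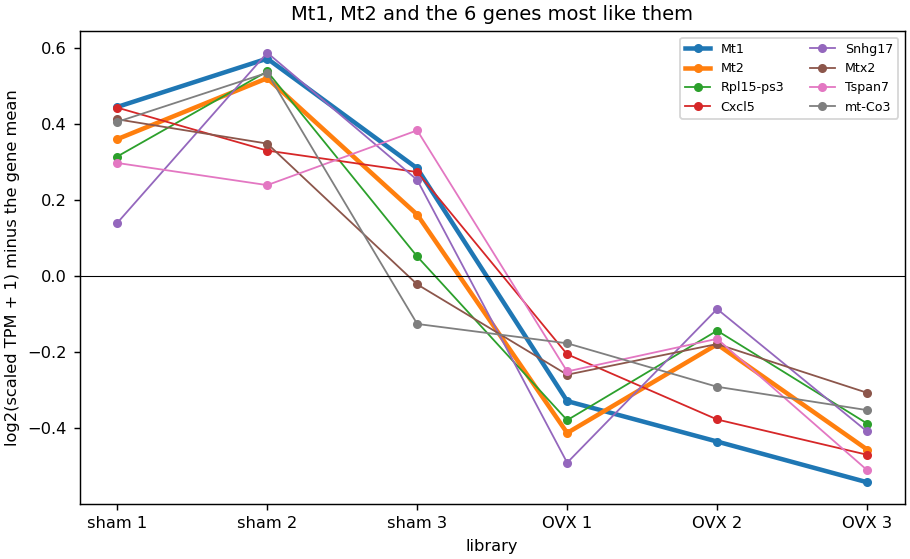
Log2(scaled TPM + 1) minus each gene's mean (vertical axis) in the 6 libraries for Mt1 and Mt2 (thick lines) and the 6 genes most like them (thin lines). Lines join libraries only to guide the eye. Mt1 and Mt2 are highest in sham 2, and Mt1 is lowest in OVX 3.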

How the data were processed

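The authors deposited 1 table of TPM per transcript, made from directional libraries of sorted cells (trimmed with fastp, aligned to mm10 with HISAT2 2.0.5 and counted with featureCounts 1.5.0-p3, per the study's methods and the submitters' processing notes). The step to TPM per transcript is not stated there, and TPM keep no depth. The table also holds the authors' comparison columns (a mean level, log2 fold change, its SE, statistic, p and adjusted p), which were not used. Of its IDs, 22992 are in GENCODE M21.

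TPM were summed per gene and scaled by an unweighted trimmed mean of M values (30% of M and 5% of A trimmed at each end). Genes with a mean of at least 1 were tested on log2(scaled TPM + 1) by limma 3.58.1 in R 4.3.3, with trend, group as the only term, all 6 libraries and Benjamini-Hochberg adjustment over all tested genes. The fold change understates that of low genes. With 3 against 3 an exact permutation test cannot go below p = 0.1, so none was run. The code of the fit was tried on simulated data with independent noise and no outlying library. That trial does not give its power on these libraries.

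The members, lists and tests were chosen with earlier results of these data known. Named are Mt1, Mt2, the listed genes of the metallothionein and MTF1 lists, up to 4 tested genes of each other list by smallest p, the 6 most alike genes, and tested neighbours within 200 kb, of which 1 is not reported here. Adgre1, Csf1r, Cd68, Cd14, Lgals3, Ctss, Dcn, Comp, Chad, Phex, Sparc, Atp7b, Slc39a6, Slc39a14, Gm10132 and Saraf fall outside this rule. They were named after their values were seen. Alternatives were other scalings, pseudocounts, filters, library weights, a replicate block and leaving out each library.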

Additional observations from a re-analysis of the deposited data

How the results depend on the processing

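Mt1 and Mt2 were lower in OVX under each of the 17 alternatives run, and their groups did not overlap under any of the 4 other scalings. The replicate block and the filters cannot change these log2 differences, and the pseudocounts hardly can at these levels. This contrast chose the pair, so its stability is a description and no test. The log2 difference of Mt1 ran from -1.03 (TPM as deposited) to -0.80, and that of Mt2 from -0.859 to -0.601 (library weights). For Mt1 it moved by more than the spread between libraries (SD 0.127) with TPM as deposited (-1.03) and relative to the median of genes with short transcripts (-1.002). The latter, and equal totals without S100a8 and S100a9 (-0.84 for Mt1 and -0.67 for Mt2), were chosen after seeing the data. Leaving out 1 library gave -0.943 to -0.80 for Mt1 and -0.789 to -0.611 for Mt2. Over all genes, limma called 1 (Gm10132, higher), 0 with a pseudocount of 0.1, 27 with library weights (20 higher, 7 lower; OVX 3 had a weight of 0.172), and between 0 and 10 without 1 library. The count was 10 without OVX 3, 2 without OVX 2, 1 without sham 2, and 0 without OVX 1, sham 1 or sham 3. Without sham 2 the called gene was Saraf, lower in OVX, and not Gm10132. The cause of these changes was not tested. With the replicate number as a block the count was 0. The study's methods name no pairing of libraries, so the numbers were not taken as pairs. Deviations of same-numbered libraries correlated at -0.0559, -0.127 and -0.251, and those of other pairs at -0.145 to 0.198. Deviations from a mean of 3 libraries depend on each other, so these correlations cannot decide on pairing. Of the 145 tested genes of all lists other than the pair, limma called 0, against 3 with library weights (Col2a1, Col10a1, Ngp) and between 0 and 2 without 1 library (2 without OVX 3). None of the 8 pathway lists held one. The direction of most NRF2 list genes was lost without OVX 3, and the counts by list under other scalings and without OVX 3 were added after seeing the data. With TPM as deposited 78.5% of genes with separate groups were lower in OVX, and with equal totals 70.9%, against 51.2% after the main scaling. TPM keep no counts, so no limit from depth can be given.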
